A study of Mus musculus with 39 samples.

Results

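Of 39 lymphomas of Eµ-myc transgenic mice, 7 (tumours 1, 9, 11, 14, 21, 22 and 32 by the numbers in the labels) had raised expression across the genes of chromosome 15. They were set against 26 other tumours of the same series. The members were chosen by measured values. Each of 6239 autosomal genes with a mean log2 level above 8 was centred on its median over all arrays, each array was centred on its own median, and the median over the 249 chromosome 15 genes was taken. A tumour with a median of 0.15 or more was called raised. Only tumours with a Pou2af1 level of 8 or more entered either side, so that 6 tumours (5, 6, 8, 19, 23 and 26) were left out. Pou2af1 encodes a transcriptional coactivator of B cells. The levels are on a log2 scale, on which a difference of 1 is a doubling.

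All tumours carry the Eµ-myc transgene, which places Myc under the immunoglobulin heavy chain enhancer and so drives it in B lineage cells. The labels give neither age, strain, treatment nor outcome, and put all tumours in one group without a normal tissue. RNA of homogenized tumour tissue was measured on 1 array per tumour. Whether any mouse gave more than 1 tumour is not stated, so the p-values describe the spread among these arrays, some of which may be technical. In bulk tissue, fewer cells of a type and less RNA per cell cannot be told apart.

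As background, mouse chromosome 15 holds the endogenous Myc gene, a transcription factor gene that drives growth and division, and gain of this chromosome is a known lesion of mouse lymphoid tumours. Tumours that gain or lose a whole chromosome often show a shift in the transcripts of many of its genes at once, small for each gene but in one direction. DNA was not measured here, so copy number was not tested. The Eµ-myc transgene carries mouse Myc, and the array level does not separate it from the endogenous gene.

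The values that chose the members were 0.35 in tumour 11, 0.27 in tumour 22, 0.26 in tumour 1, 0.25 in tumour 32, 0.24 in tumours 9 and 14 and 0.21 in tumour 21. Among the other 26 tumours the median was -0.06, the lowest value -0.19 (tumour 2) and the highest 0.13 (tumour 12). Tumour 21 was the member just inside the limit and tumour 12 the tumour just outside it, and the next tumour, 25, was at 0.04. In the raised tumours 68.7% to 94.4% of the 249 genes lay above their median over all arrays, against 25.7% to 70.3% in the other tumours, where the highest share was that of tumour 12. Of the 6 tumours left out, tumours 5, 19 and 26 had chromosome 15 medians of 0.33, 0.31 and 0.29, and tumours 23, 6 and 8 had -0.11, -0.16 and -0.21.

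**Figure D1:**
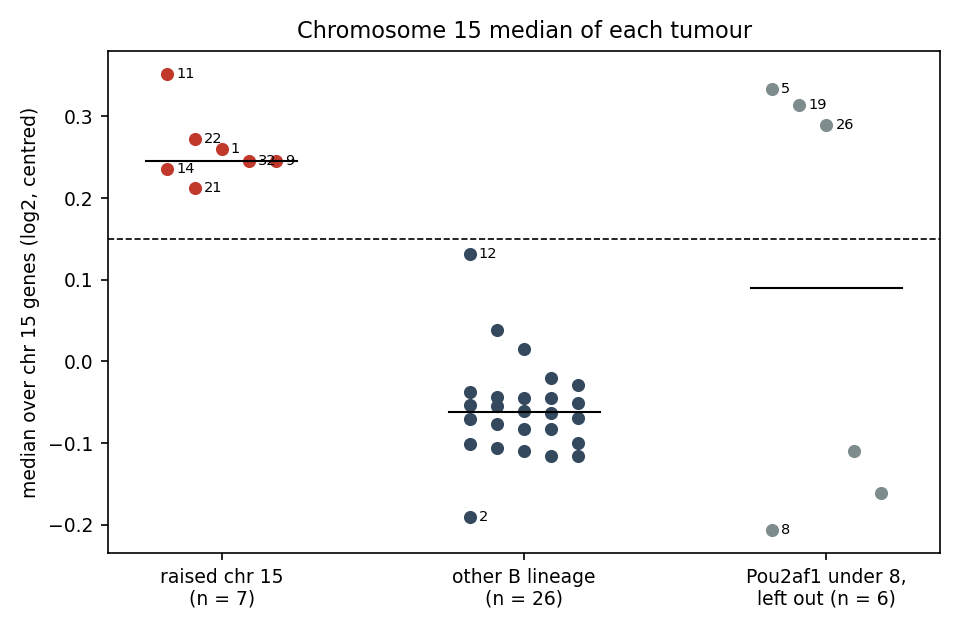
The median over 249 chromosome 15 genes (vertical axis, log2 after centring genes and arrays) is plotted for each tumour, with a bar at the median of each group and a dashed line at the limit of 0.15. The 7 raised tumours sit between 0.21 and 0.35, the 26 other tumours between -0.19 and 0.13, and the 6 tumours left out for low Pou2af1 fall on both sides of the limit.

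The sides were checked for B lineage transcripts. Pou2af1 ran from 10.59 to 12.91 (median 12.60) in the raised tumours, against 12.01 to 12.98 (median 12.78) in the other tumours. The score of 13 measured pan B cell genes (the mean of their levels, each minus its mean over all tumours) ran from -0.80 to 0.61 (median 0.46) in the raised tumours, against -0.09 to 0.75 (median 0.44) in the other tumours. This score includes Pou2af1, which the rule used. The lowest score of the raised tumours was that of tumour 32, followed by tumour 21 (-0.27). Tumour 32 also had the lowest Pou2af1 of the 33 tumours and the highest level of Siglech, a gene of plasmacytoid dendritic cells (12.54, with 9.75 in tumour 22 and 5.04 to 5.99 in the remaining raised tumours). The 3 tumours left out with raised chromosome 15 medians had Siglech levels of 11.30 (tumour 5), 10.96 (tumour 19) and 9.52 (tumour 26). The large differences and the calls below were also computed without tumour 32.

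Most chromosome 15 genes were slightly higher in the raised tumours. Of the 249 genes with a mean above 8, 237 (95.2%) had a higher mean in the raised tumours and 12 a lower one, with a median difference of 0.30 (log2, raised minus other), or 1.23-fold. From the 10th to the 90th percentile the differences ran from 0.10 to 0.50. Of 6176 genes elsewhere with a mean above 8, 39.8% were higher, with a median difference of -0.04. Since the chromosome 15 genes chose the tumours, these values are a description and carry no test. The median difference was similar at each level, at 0.30 for the 71 genes between 8 and 9, 0.31 for the 73 between 9 and 10, 0.33 for the 48 between 10 and 11 and 0.30 for the 57 above 11.

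**Figure D2:**
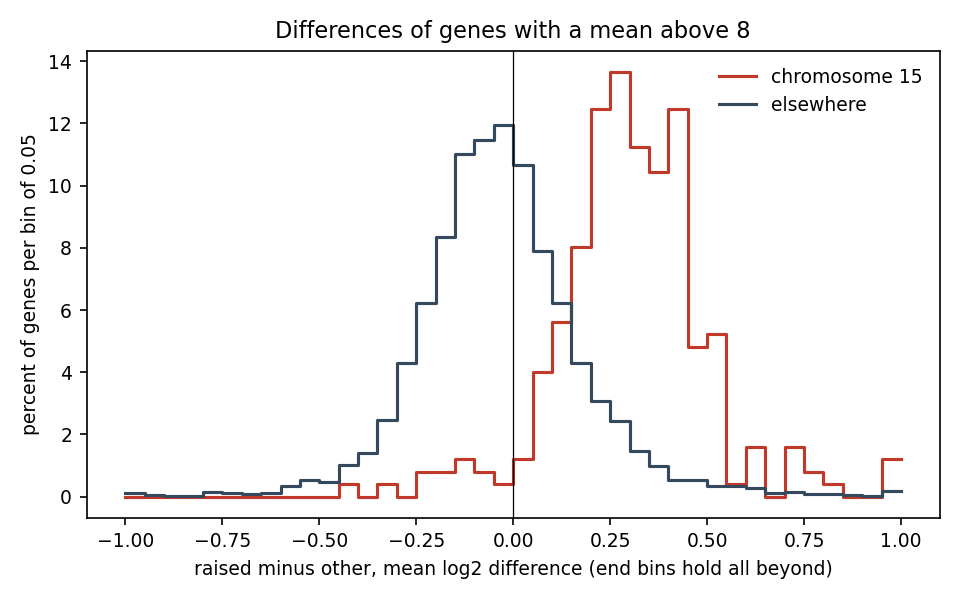
The percent of genes per bin of 0.05 is plotted against the mean log2 difference, raised minus other tumours, for 249 chromosome 15 genes and 6176 genes elsewhere, all with a mean above 8; the end bins hold all genes beyond 1. The chromosome 15 distribution is centred near 0.30 and that of the genes elsewhere near -0.04.

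The higher levels spanned the chromosome. Since the rule used the same 249 genes, the values by stretch are a description, and the distance between the sides follows in part from the choice. With the 249 genes split by their order into 4 stretches, the median gene difference was 0.30 in the first stretch (63 genes), 0.30 in the second, which holds Myc, 0.35 in the third and 0.29 in the fourth (62 genes each). Every raised tumour was above 0.15 in all 4 stretches, with medians from 0.20 to 0.33 in the first, 0.19 to 0.32 in the second, 0.17 to 0.38 in the third and 0.18 to 0.38 in the fourth. The other tumours ran from -0.18 to 0.11, -0.13 to 0.14, -0.41 to 0.17 and -0.14 to 0.11 in the same stretches. The highest of these values were those of tumour 12 in the first 3 stretches and of tumour 37 in the fourth. The sides overlapped in the third stretch alone, where tumour 12 (0.173) lay just above tumour 21 (0.171).

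**Figure D3:**
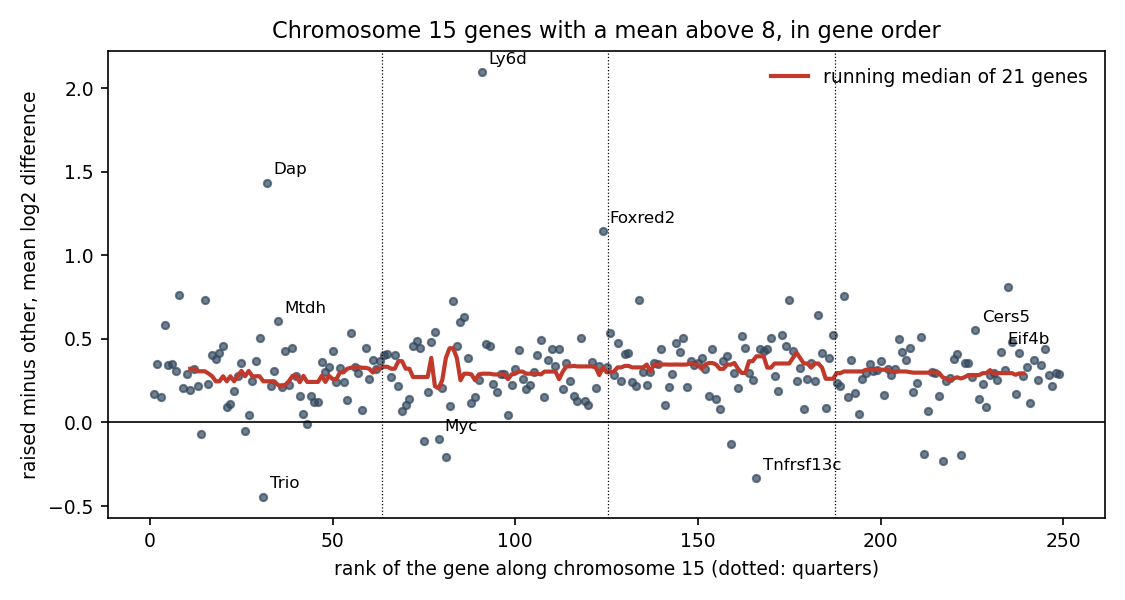
The mean log2 difference, raised minus other tumours, is plotted for the 249 chromosome 15 genes against their rank along the chromosome, with a running median of 21 genes and dotted lines between the 4 stretches. The running median stays above 0 along the whole chromosome, while single genes such as Ly6d (2.10), Dap (1.43) and Foxred2 (1.14) lie far above it and Trio (-0.44), Tnfrsf13c (-0.33) and Myc (-0.10) lie below 0.

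Probe sets and genes that the rule did not use were also higher. A further 127 chromosome 15 probe sets with a mean above 8, which were not chosen to represent their genes, had a median difference of 0.27 and 89.0% were higher in the raised tumours, against -0.07 and 32.7% for 3203 such probe sets elsewhere. They measure genes that the rule used through another probe set, on the same arrays. Of the 475 chromosome 15 genes with a mean of 8 or less, none of which entered the rule, 316 (66.5%) were higher in the raised tumours, against 56.0% of 11127 such genes elsewhere. The median difference was 0.26 for the 79 of them with means between 7 and 8, against -0.01 for genes elsewhere at that level, 0.08 for the 82 between 6 and 7, against 0.02, and 0.02 for the 314 at 6 or less, against 0.02. In the limma fit over 18027 genes, 4 of the 475 rose and 0 fell at a Benjamini-Hochberg adjusted p under 0.05. Outside chromosome 15, 8 of 17303 genes (0.0462%) rose and 10 (0.0578%) fell in the same fit.

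Of those 4 dim genes, Slc4a8, a bicarbonate transporter gene, ran from 6.50 to 8.89 (median 7.65) in the raised tumours, against 5.59 to 7.66 (median 6.44) in the other tumours. It rose by 1.36 ± 0.24 (SE) with a limma adjusted p of 0.0035, but its 4 other probe sets differed by 0.03 to 0.32, and the mean of all 5 by 0.39 (adjusted p = 0.068). Serhl, which encodes a serine hydrolase-like protein, ran from 7.79 to 8.46 (median 7.98) in the raised tumours, against 6.70 to 7.92 (median 7.16) in the other tumours, and rose by 0.85 ± 0.13 (SE) (limma adjusted p = 0.00095). Its other probe sets differed by 0.77, 0.09 and 0.00076. Atpsckmt, which encodes a lysine methyltransferase acting on the c subunit of mitochondrial ATP synthase, rose by 0.68 ± 0.13 (SE) (limma adjusted p = 0.0099), with 4 of 7 raised tumours above the highest other tumour. Its second probe set differed by -0.06, and the mean of both by 0.31 (adjusted p = 0.083). The 4th was the clone transcript 9030619P08Rik (1.16, limma adjusted p = 0.015), whose highest level was in tumour 32 (7.74). Without that tumour it differed by 0.83 (limma adjusted p = 0.045), and the other 3 passed as well, with Slc4a8 at 1.19 (adjusted p = 0.021). The raised and other tumours overlapped for all 4.

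In 3 chromosome 15 genes every raised tumour lay above every other tumour, against 0 of 17303 genes elsewhere and 3 of all 18027 genes (0.0166%). Since the rule used these genes, nothing is read from that count. Cers5, a ceramide synthase of sphingolipid metabolism, had levels of 10.83, 10.41, 10.64, 10.63, 10.63, 10.53 and 10.65 in tumours 1, 9, 11, 14, 21, 22 and 32, against 9.83 to 10.40 (median 10.04) in the other tumours. The lowest raised tumour was thus just above the highest other tumour. Eif4b, a translation initiation factor that assists the unwinding of messenger RNA, ran from 12.16 to 12.40 (median 12.27) in the raised tumours, against 11.15 to 12.14 (median 11.89) in the other tumours. Atp5g2, which encodes the c subunit of mitochondrial ATP synthase, ran from 12.60 to 12.95 (median 12.76) in the raised tumours, against 11.64 to 12.52 (median 12.35) in the other tumours. The differences were 0.55, 0.42 and 0.44 on the log2 scale.

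The promoters of these 3 genes are shown because they differed most cleanly between the sides. Beside them is that of Bcl2l2, which rose most among the called genes outside chromosome 15. The sequences are from RefSeq (GRCm38.p6), 5′ to 3′, from a window around the start of each gene that lies mostly before it. They were searched for the letters CACGTG, the E-box that Myc and its partner Max are known to bind.
Cers5, chr15:99772466-99772765, minus strand: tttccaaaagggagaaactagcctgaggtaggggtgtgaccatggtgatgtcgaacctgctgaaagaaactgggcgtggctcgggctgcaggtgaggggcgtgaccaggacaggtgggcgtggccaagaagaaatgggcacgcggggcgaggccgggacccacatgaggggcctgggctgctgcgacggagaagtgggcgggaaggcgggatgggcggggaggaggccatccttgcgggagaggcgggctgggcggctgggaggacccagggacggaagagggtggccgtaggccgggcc
Eif4b, chr15:102073523-102073822, plus strand: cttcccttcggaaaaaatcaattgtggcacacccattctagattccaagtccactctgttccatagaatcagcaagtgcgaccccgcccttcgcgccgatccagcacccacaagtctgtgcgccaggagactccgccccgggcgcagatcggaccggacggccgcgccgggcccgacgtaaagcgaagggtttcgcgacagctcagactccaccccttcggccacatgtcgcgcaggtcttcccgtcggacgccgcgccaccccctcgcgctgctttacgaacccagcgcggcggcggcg
Atp5g2, chr15:102670998-102671297, minus strand: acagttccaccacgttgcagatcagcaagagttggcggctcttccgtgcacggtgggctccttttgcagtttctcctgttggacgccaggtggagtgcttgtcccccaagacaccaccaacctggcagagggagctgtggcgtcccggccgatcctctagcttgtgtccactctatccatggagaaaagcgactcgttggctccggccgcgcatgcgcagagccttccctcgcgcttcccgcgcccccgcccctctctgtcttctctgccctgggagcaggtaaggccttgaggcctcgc
Bcl2l2, chr14:54883175-54883474, plus strand: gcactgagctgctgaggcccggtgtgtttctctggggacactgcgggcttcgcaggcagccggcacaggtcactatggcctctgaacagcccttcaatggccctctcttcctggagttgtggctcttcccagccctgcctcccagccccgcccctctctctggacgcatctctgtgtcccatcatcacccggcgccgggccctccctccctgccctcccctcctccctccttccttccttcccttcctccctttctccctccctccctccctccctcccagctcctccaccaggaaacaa
All 4 windows held the motif 0 times, which says only that these letters are not in them. CACGTG reads the same on both strands. It was present in 10.1% of the 139 promoters found for chromosome 15 genes with a mean above 8, in 11.7% of 5195 promoters found for genes elsewhere at that level and in 7.24% of all 27025 promoters searched. A match describes letters in this window and is not a measured binding site.

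Myc itself was not higher in the raised tumours. Its levels were 11.10 in tumour 1, 11.70 in tumour 9, 12.08 in tumour 11, 12.39 in tumour 14, 11.50 in tumour 21, 11.91 in tumour 22 and 11.48 in tumour 32. The other tumours had a median of 12.07, a lowest level of 8.19 (tumour 2) and a highest of 12.63, and 2 of the 7 raised tumours lay above that median. The means were 11.74 ± 0.43 in the raised tumours and 11.84 ± 0.85 in the other tumours (SD, n = 7 and 26), a difference of -0.10. Of the other 248 chromosome 15 genes, 240 had a larger difference than Myc and 8 a smaller one. Without tumour 2, whose Myc level was far below all others, the difference was -0.25. As a gene that the rule used, Myc is given with no test.

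Genes around Myc on chromosome 15 were mostly higher. The lists by role hold genes with means of 8 or less as well, none of them called. Of all 724 chromosome 15 genes 76.4% were higher, with a median difference of 0.14. Of the 249 with a mean above 8, 95.2% were higher, with a median of 0.30. The rule used those 249 genes, so the counts by role describe the chromosome and are not traits of a role. Of 30 measured members of a list of the Myc region, 25 were higher in the raised tumours, with a median difference of 0.21. Pvt1, the noncoding RNA gene next to Myc, ran from 6.83 to 9.01 (median 8.20) in the raised tumours, against 6.84 to 8.60 (median 7.80) in the other tumours. The groups overlapped widely. Washc5, a subunit of the WASH complex that shapes actin on endosomes, ran from 10.89 to 11.41 (median 11.06) in the raised tumours, against 10.33 to 10.98 (median 10.57) in the other tumours, and 5 of the 7 raised tumours exceeded every other tumour. Ndufb9, a subunit of respiratory complex I, ran from 12.05 to 12.50 (median 12.22) in the raised tumours, against 11.52 to 12.08 (median 11.83) in the other tumours, and 6 of 7 exceeded every other tumour. Differences were 0.49 for Tatdn1, a putative DNase gene, 0.54 for Nsmce2, a SUMO ligase of DNA repair, 0.54 for the pseudokinase gene Trib1 and 0.46 for Rnf139, a ubiquitin ligase of the endoplasmic reticulum. Members below 0 were Zhx2 (-0.29), Asap1 (-0.20), St3gal1 (-0.11), Mtss1 (-0.11) and Myc.

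All 17 measured genes of translation and RNA were higher, by a median of 0.33. All 17 had means above 8, where 95.2% of the chromosome 15 genes were higher, by a median of 0.30. Among the subunits of initiation factor eIF3 the differences were 0.24 for Eif3e, 0.33 for Eif3d, 0.33 for Eif3h and 0.35 for Eif3l. Eif3e ran from 13.33 to 13.60 (median 13.51) in the raised tumours, against 12.98 to 13.34 (median 13.24) in the other tumours, so that 5 of 7 raised tumours exceeded every other tumour with a difference under 0.3. Pabpc1, the poly(A) binding protein gene (0.05), and the ribosomal protein gene Rpl8 (0.13) were among the smallest, with mean levels above 14. Drosha, which processes primary microRNAs, differed by 0.35 and Med30, a Mediator subunit, by 0.44.

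All 22 measured metabolic and mitochondrial members were higher, by a median of 0.26. Of these, 19 had means above 8, where 95.2% of the chromosome 15 genes were higher. Besides Ndufb9 and Atp5g2 they included Ndufa6, another complex I subunit, which ran from 11.67 to 12.11 (median 11.83) in the raised tumours, against 10.89 to 11.69 (median 11.44) in the other tumours, and Cox6c, a subunit of cytochrome c oxidase, which differed by 0.28. Tspo, a protein of the outer mitochondrial membrane, differed most (0.73), with all 7 raised tumours above the median of the other tumours but none above their highest. The smallest differences were 0.03 for Dgat1, of triglyceride synthesis, and 0.05 for Tst.

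Of 20 genes of cell division and repair 18 were higher, by a median of 0.20. On the whole chromosome, 76.4% of all genes and 95.2% of those with a mean above 8 were higher. Rad21, a cohesin subunit, had a mean level of 11.61 ± 0.20 in the raised tumours and 11.54 ± 0.31 in the other tumours (SD, n = 7 and 26), a difference of 0.08. Nipbl, which loads cohesin, differed by 0.32, Racgap1, of cytokinesis, by 0.27 and Cenpm, a centromere protein gene, by 0.44. Skp2, the ubiquitin ligase subunit that marks Cdkn1b for degradation, differed by -0.07 and Tuba1a, an alpha tubulin gene, by -0.20.

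Of 24 genes of transcription and chromatin 20 were higher, by a median of 0.17, beside 76.4% and 0.14 over all 724 chromosome 15 genes. Cbx7 (0.67), a Polycomb protein gene, Arid2 (0.42), of a SWI/SNF complex, Kmt2d (0.38), a histone methyltransferase gene, and Atf4 (0.37), of the stress response, were higher. Trps1 (-0.41), Hdac7 (-0.19), Tob2 (-0.13) and the vitamin D receptor gene Vdr (-0.06) were lower. Among 22 genes of immune receptors and signalling 21 were higher, by a median of 0.46, beside the same share of 76.4%. Their differences ran from -0.33 to 2.10. The score of the list was 1.10, 0.79 and 1.31 in tumours 1, 22 and 32 but -0.61, -0.02, -0.27 and -0.32 in tumours 9, 11, 14 and 21, against a median of -0.32 in the other tumours. Tumours 1, 22 and 32 also had the highest T cell scores (1.02, 0.35 and 1.59) and dendritic cell scores (0.77, 0.70 and 2.37) of the 7. The dendritic cell score shares Ly6d (2.10) with this list, so the 2 scores are not independent. The part of these cells in the differences was not tested. Tnfrsf13c, the receptor for the B cell survival factor BAFF, was the exception, with a mean level of 10.01 ± 1.18 in the raised tumours and 10.35 ± 0.66 in the other tumours (SD, n = 7 and 26).

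The largest differences on the chromosome came from genes that varied widely among the tumours. The 12 genes with the largest differences had SDs among the other tumours of 0.41 to 1.99 (median 0.83), against a median of 0.31 over all 249. Ly6d, a surface protein of early lymphoid cells, had levels of 13.25, 12.69, 12.28, 11.32, 10.95, 9.71 and 13.46 in tumours 1, 9, 11, 14, 21, 22 and 32, against 6.09 to 12.71 in the other tumours. The 2 raised tumours above every other tumour were 1 and 32, and the tumours left out with raised chromosome 15 medians had 12.07 (tumour 5), 13.60 (tumour 19) and 13.23 (tumour 26). Dap, which encodes a death-associated protein that restrains autophagy, ran from 10.02 to 12.95 (median 10.76) in the raised tumours, against 7.74 to 11.20 (median 9.71) in the other tumours, with its highest level in tumour 32. Both probe sets of Dap gave close differences (1.43 and 1.41). Foxred2, of protein degradation from the endoplasmic reticulum, ran from 8.54 to 10.77 (median 9.46) in the raised tumours, against 7.02 to 9.19 (median 8.29) in the other tumours.

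Other large differences were 0.81 for Itgb7, an integrin of gut homing, 0.76 for the adaptor gene Fyb, 0.75 for Creld2, an endoplasmic reticulum stress gene, 0.73 for Tspo, 0.73 for the galectin gene Lgals1, 0.73 for Il7r, the interleukin-7 receptor of precursor B cells, 0.73 for Tmem71, 0.64 for Cdpf1 and 0.63 for Ndrg1, a stress response gene. In Fyb only 3 of the 7 raised tumours lay above the median of the other tumours, and in Il7r 5. Among the chromosome 15 genes with a mean above 8, the 6 lowest differences were those of Trio (-0.44), Tnfrsf13c (-0.33), Fkbp11 (-0.23), of secretory cells, Asap1 (-0.20), Tuba1a (-0.20) and Hdac7 (-0.19). For these 6 genes the sides overlapped. Without tumour 32 the difference was 1.84 for Ly6d and 1.12 for Dap, but 0.44 for Itgb7, 0.28 for Fyb, -0.04 for Tnfrsf13c, -0.10 for Hdac7, -0.13 for Asap1 and -0.47 for Fkbp11.

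Outside chromosome 15 few genes differed. Of 17303 genes, 8 rose and 10 fell at a limma adjusted p under 0.05 (18 in all, 0.104%), and 1419 had an unadjusted p under 0.05. With each array's median subtracted first, 16 rose and 10 fell. Without tumour 32 the fit called 5 genes, 4 of them among the 18, and without tumour 2 it called 57, with all 18 among them. These genes did not choose the sides, except that each array's median entered the rule.

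Among the called genes outside chromosome 15, Bcl2l2 on chromosome 14, which encodes the survival protein Bcl-w of the BCL2 family, rose most. Its levels were 8.31, 11.61, 7.47, 8.81, 8.74, 7.87 and 9.78 in tumours 1, 9, 11, 14, 21, 22 and 32, against 6.17 to 8.62 (median 7.12) in the other tumours. All 7 raised tumours lay above the median of the other tumours and 4 above their highest. The difference was 1.89 ± 0.34 (SE), or 3.7-fold, with a limma adjusted p of 0.0056, and 1.75 without tumour 32 (adjusted p = 0.025). A second probe set differed by 1.48 and the remaining 2 by 0.48 and 0.36, and the mean of all 4 by 1.05 (adjusted p = 0.0018). With tumour 12 moved to the raised side, at a limit of 0.10, the adjusted p was 0.056. The chromosome 14 median was 0.35 in tumour 11 and 0.23 in tumour 14, but between -0.13 and 0.04 in the other 5 raised tumours, tumour 9 with the highest Bcl2l2 among them (-0.05). The 6 tumours left out had Bcl2l2 levels of 8.21 to 8.71. Of 14 measured members of the BCL2 family only Bcl2l2 passed, and the median difference of the family was -0.10. Pmaip1 (-0.77) and Bcl2 (-0.37) were lower and Mcl1 (0.15) was higher, and none of these passed (limma adjusted p of 0.69, 0.9 and 0.81).

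Of the 8 genes that rose, 5 lie on chromosome 5. Tmem119, a transmembrane protein gene known from bone and microglia, ran from 5.50 to 8.54 (median 6.79) in the raised tumours, against 5.21 to 6.03 (median 5.50) in the other tumours. It rose by 1.08 ± 0.21 (SE) (limma adjusted p = 0.011), and by 0.77 without tumour 32 (adjusted p = 0.024), its highest tumour. Hspb1, a small heat shock protein gene, ran from 8.30 to 10.71 (median 9.15) in the raised tumours, against 7.23 to 10.10 (median 7.70) in the other tumours and rose by 1.33 ± 0.29 (SE) (limma adjusted p = 0.034). Ociad2 (0.87), the mitochondrial carrier gene Slc25a40 (0.59) and Atraid (0.56), which encodes a retinoic acid induced protein, rose too. The chromosome 5 median was 0.60 in tumour 21, 0.31 in tumour 14 and 0.28 in tumour 32, against at most 0.0017 in the remaining 4 raised tumours. With the medians of chromosomes 3, 5 and 10 as covariates, the difference of Tmem119 was 0.98 (limma adjusted p = 0.041). The differences of Hspb1 (1.18, adjusted p = 0.15), Ociad2 (0.85, 0.11), Slc25a40 (0.44, 0.18) and Atraid (0.45, 0.11) kept their direction but did not pass in that fit. Dusp22 on chromosome 13, a phosphatase gene of lymphocyte signalling, ran from 8.29 to 9.09 (median 8.68) in the raised tumours, against 7.47 to 8.56 (median 8.15) in the other tumours, with 6 of 7 raised tumours above every other tumour. It rose by 0.58 ± 0.13 (SE) (limma adjusted p = 0.032). Arhgap23 on chromosome 11 rose by 0.52 ± 0.11 (SE) (limma adjusted p = 0.021), but its 2 other probe sets differed by 0.15 and 0.07, and the mean of all 3 by 0.25 (adjusted p = 0.10).

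The 10 genes that fell were spread over 9 chromosomes. Pgd on chromosome 4, an enzyme of the pentose phosphate pathway, ran from 11.16 to 11.71 (median 11.37) in the raised tumours, against 11.51 to 12.17 (median 11.85) in the other tumours. All 7 raised tumours lay below the median of the other tumours, and the fall of 0.39 on the log2 scale (raised minus other -0.39 ± 0.08 (SE), limma adjusted p = 0.0099) was seen in all 4 probe sets (-0.40 to -0.34). Nae1 (-0.32), of the enzyme that activates NEDD8, Tbrg1 (-0.57), a growth regulator gene, Ints8 (-0.58), an Integrator subunit, Crk (-0.59), a signalling adaptor gene, and Echdc1 (-0.58), a metabolic enzyme gene, fell. So did the zinc finger genes Zfp763 (-0.87), Zfp800 (-0.53), Zfp574 (-0.46) and Zbtb33 (-0.43), the last on the X chromosome. Zfp800 was lower in all 7 of its probe sets, but 3 of 5 Crk probe sets differed by -0.0068, -0.0039 and 0.011. Zfp574 differed by -0.24 over the mean of its probe sets (limma adjusted p = 0.37) and Crk by -0.25 (adjusted p = 0.22). Without tumour 32 the 4 genes of the 18 that passed were Bcl2l2, Dusp22, Tmem119 and Crk.

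**Figure D4:**
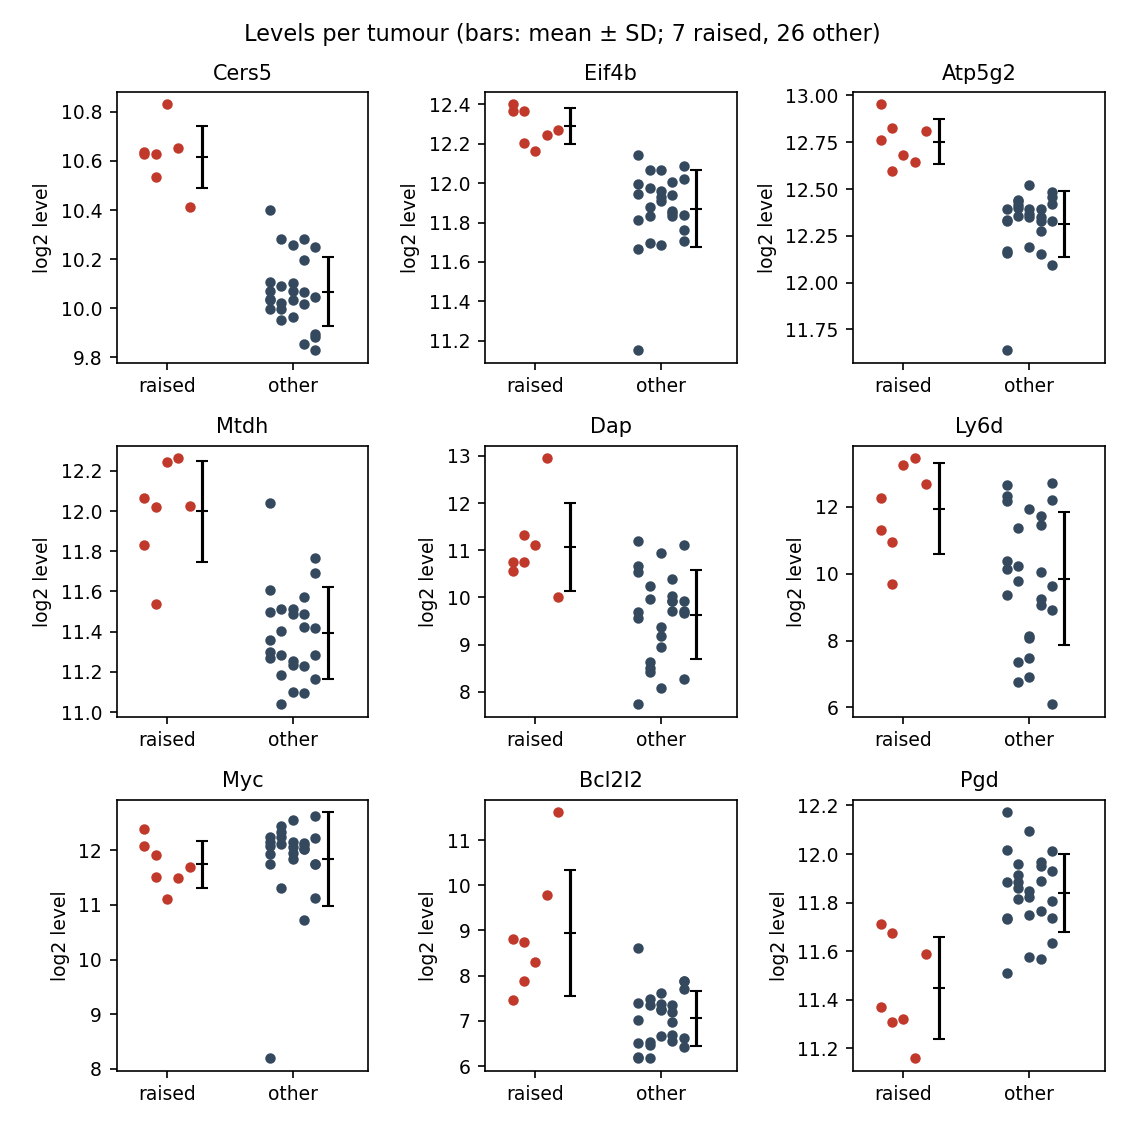
Log2 levels of 9 genes are plotted for each of the 7 raised and 26 other tumours, with the mean and SD beside the points. Cers5, Eif4b and Atp5g2 do not overlap between the sides, Mtdh, Dap and Ly6d do, Myc overlaps with nearly equal means, and Bcl2l2 and Pgd are genes outside chromosome 15 that rose and fell.

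Mtdh, an oncoprotein gene of chromosome 15 shown among these, ran from 11.54 to 12.26 (median 12.02) in the raised tumours, against 11.04 to 12.04 (median 11.38) in the other tumours, a difference of 0.61. Its 3 other probe sets with means above 8 differed by 0.54 to 0.79.

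Among genes that Myc is known to drive, differences were small. Of all 17303 genes outside chromosome 15 only 0.104% passed. The counts of 0 below are near that share and are not read as a result about these lists. Of 25 measured Myc target and ribosome biogenesis genes 0 passed the limma test in either direction, 6 were higher, and the median difference was -0.04, the same as for all genes elsewhere with a mean above 8. Ncl, which encodes nucleolin, differed by -0.06 and Srm, of polyamine synthesis, by -0.04. Among 12 members of the Max network 0 passed, with a median of 0.01, -0.25 for Max and 0.56 for Mxd4, a repressive partner of Max. None of 19 G2/M genes had a higher mean in the raised tumours and 0 passed, with a median of -0.16. Of 19 S phase genes 3 were higher and 0 passed, with a median of -0.14. Among genes elsewhere with a mean above 8, 39.8% were higher. None of 21 p53 targets passed (median 0.01). Single tumours stood apart on both sides: the G2/M score was -1.04 in tumour 1 and from -0.16 to 0.34 in the other 6 raised tumours, against -2.51 in tumour 2. The median G2/M score was 0.18 in the raised tumours and 0.28 in the other tumours. The Myc target score was -0.53 in tumour 1 and from -0.18 to 0.31 in the other 6, against -1.81 in tumour 2.

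The raised tumours also had raised medians on other chromosomes, a trait shared with some of the other tumours. Beside chromosome 15, each of the 7 had 2 to 4 further chromosomes with a median of 0.15 or more, against 0 to 7 in the other tumours, of which 14 of 26 had none and 7 had 2 or more. Chromosome 3 was at 0.15 or more in 5 of 7 raised tumours (9, 11, 14, 22 and 32, from 0.21 to 0.29), against 4 of 26 other tumours (12, 15, 24 and 31). Chromosome 5 was so in 3 of 7 (14, 21 and 32), against 4 of 26, and chromosome 11 in tumour 21, against 0 of 26. Chromosomes 10 (14 and 21), 14 (11 and 14), 17 (1 and 22), 18 (1 and 21) and 19 (1 and 9) were so in 2 of 7 each, against 2, 3, 1, 1 and 1 of 26. Of the left-out tumours with raised chromosome 15 medians, tumours 5 and 26 had 1 further chromosome at 0.15 or more and tumour 19 had 0. On chromosome 3 the other 2 raised tumours, 1 and 21, were at -0.09 and -0.23. Chromosome 13 was at -0.15 or less in 7 of 26 other tumours and in 0 of 7 raised tumours, whose medians ran from -0.02 to 0.08. Each array was centred on its own median, so that medians of several chromosomes in one tumour depend on each other. The limit of 0.15 was taken from the rule for chromosome 15 and applied to the others after their values were seen, so these counts carry no test.

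**Figure D5:**
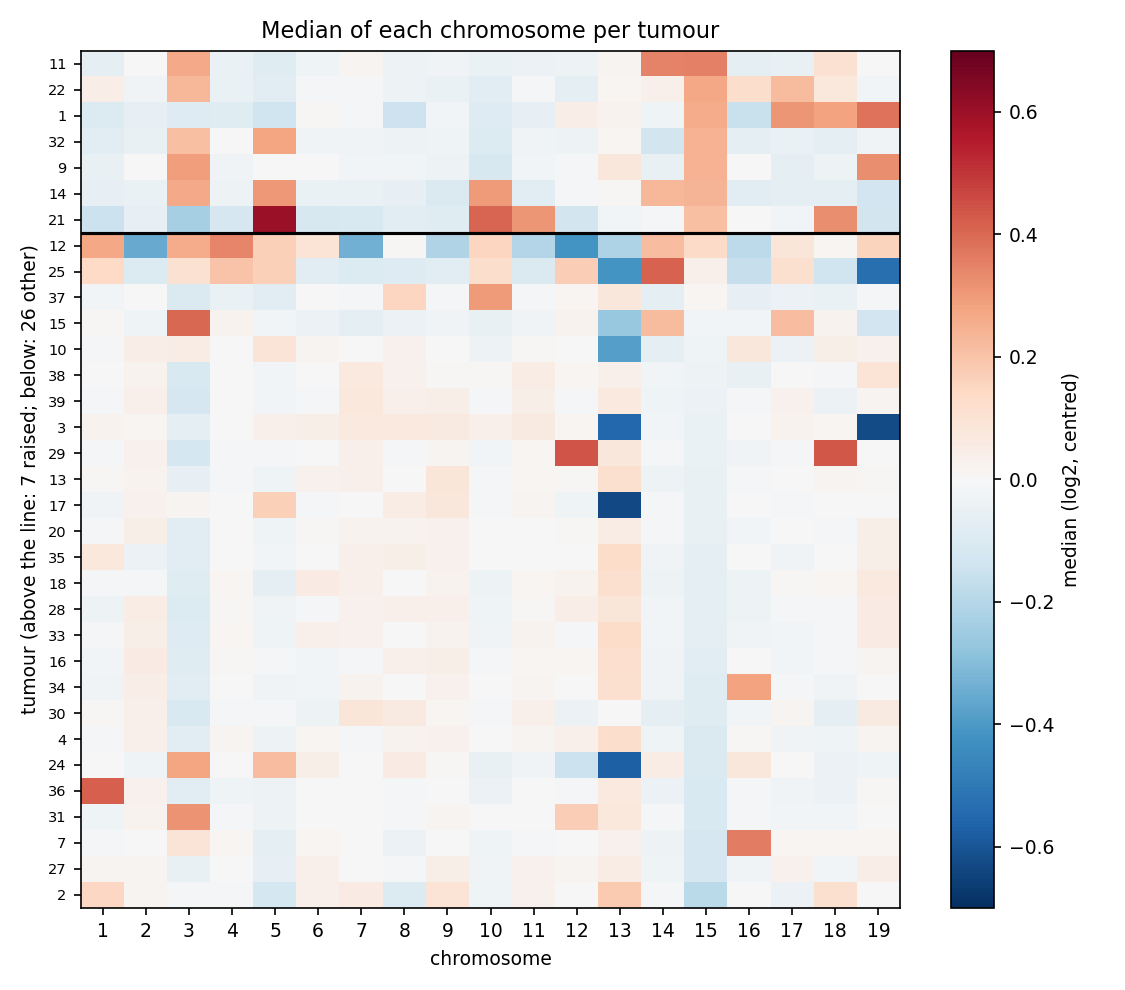
The median of each autosome (horizontal axis) is shown as a colour for each tumour (vertical axis), red where higher and blue where lower on the centred log2 scale, with the 7 raised tumours above the line and the 26 other tumours below it. Each raised tumour has 2 to 4 further chromosomes at 0.15 or more, among them chromosome 3 in 5 of 7, and 14 of the 26 other tumours have none.

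With the chromosome 3 median as a covariate, the median difference of the 249 chromosome 15 genes was 0.29, and with chromosomes 3, 5 and 10 it was 0.26. The count of genes called outside chromosome 15 was 21 and 20 in these fits, of which 11 and 8 were among the 18. Levels that could differ with the make-up of the tissue were overlapping: the T cell score ran from -1.14 to 1.59 in the raised tumours, against -1.35 to 2.93 in the other tumours, and the macrophage score from -0.65 to 0.86, against -0.98 to 1.31. Of 13 T cell, 18 macrophage, 12 neutrophil, 11 dendritic cell and 11 fibroblast genes 0 passed. Only 0.104% of all genes outside chromosome 15 passed, so nothing is read from that count. Higher in the raised tumours were 7 of the T cell, 15 of the macrophage, 2 of the neutrophil, 9 of the dendritic cell and 8 of the fibroblast genes. Outside chromosome 15, 50.2% of all genes were higher. The dendritic cell score includes Ly6d of chromosome 15, which the rule used. Of the raised tumours, tumour 32 had the highest such score (2.37), above the highest other tumour (1.78). The part of this score in the other results was not tested. Xist, the RNA of the inactive X chromosome, was above 13 in 5 of 7 raised tumours and at 6.01 and 5.67 in tumours 9 and 21. Its median in the other tumours was 5.83. The Y chromosome genes Uty and Kdm5d lay below the median of the other tumours in all 7 raised tumours. The score of the 4 measured sex-linked genes, Xist among them, had a median of -0.78 in the raised tumours and 0.37 in the other tumours. The sides were thus not balanced for these genes, and the comparison is partly confounded with them. Tumours 9 and 21 were not alike, with scores of 0.69 and -1.57. With Xist as a covariate the median chromosome 15 difference was 0.30 and 15 genes were called outside it, 13 of them among the 18.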

How the data were processed

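RNA from 39 tumours was measured on 1 array each. The authors deposited 1 log2 level for each probe set and array. The submitters' processing notes name RMA and affy, so background correction, quantile normalization and probe summary came before deposit. Versions and filters: not given in the sources used here. Quantile normalization hides a change in total RNA, and a shift of many genes on one chromosome can slightly lower the others. Of 45101 probe sets, 9211 were not listed in the platform annotation and are unnamed here, and 932 named several genes and were not used. Through Entrez identifiers 34731 probe sets matched a gene of the assembly GRCm38.p6 with a chromosome, giving 18027 genes, each represented by its probe set with the highest mean. The number of arrays limits the precision, and no 2 arrays held identical values.

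The sides are those of the rule given with the results. All genes were fitted with limma 3.58.1 (lmFit, eBayes with trend) in R 4.3.3, raised minus other, 2-sided, with Benjamini-Hochberg adjustment over all genes and a threshold of 0.05. On simulated data with 18027 genes, changes of 0.5, 1 and 2 were recovered in 59.7%, 89.6% and 95.5% of cases, with 12 false calls. The simulation drew each gene independently from a normal distribution, whereas in the tumours many genes shift together. The rates hold for that setting and may be too high for the tumours. Errors are SDs over tumours or SEs of the fit. The members, gene lists and tests were chosen with earlier results of these data known. Genes could be named if they were Myc, Pou2af1, members of the chromosome 15 lists, the 12 largest or 6 lowest differences on chromosome 15, or called genes elsewhere. Cers5, Eif4b, Mtdh, the 4 dim chromosome 15 genes and list members elsewhere that did not pass fall outside that rule and were named after their values were seen. A list score is the mean over its genes of the level minus that gene's mean over all 39 tumours. Gene order along chromosome 15 is that of the gene table. Alternatives were another scaling, probe set choice, filter, limit, covariates and leaving out tumours.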

Additional observations from a re-analysis of the deposited data

Results flagged for a closer look

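Among 22 genes examined within the 7 raised tumours, all outside the values that chose the tumours, 1 had a tumour far from the rest by Dixon's ratio, the gap to the nearest tumour over the whole range. Chance gives about 1 such gene in 20. The clone transcript 9030619P08Rik was at 7.74 in tumour 32 and at 5.92 in the next raised tumour (ratio 0.588).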

How the results depend on the processing

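The median difference of the chromosome 15 genes ran from 0.26 to 0.36 over all alternatives; it was 0.346 without the Pou2af1 limit and 0.277 to 0.362 when each raised tumour was left out in turn, highest without tumour 1. The Myc difference ran from -0.34 to 0.06. Against 18 genes called outside chromosome 15, a limit of 0.10, which adds tumour 12, gave 30 with 8 in common, no Pou2af1 limit gave 161 with 11 in common, and T cell, macrophage and fibroblast scores as covariates gave 36, all 18 among them. Leaving out tumour 2 gave 57, leaving out tumours 2, 12 and 32 gave 34, and leaving out each raised tumour gave 5 to 22, of which 4 to 13 were among the 18, both lowest without tumour 32. The 4 dim chromosome 15 genes called became 7 after subtracting array medians, which put the median difference of all genes at 0.045 in place of 0.0043, 2 with the mean of all probe sets, 23 without the Pou2af1 limit, 7 with the scores as covariates and 4 to 6 when each raised tumour was left out. The causes were not tested. None of the 18 genes changed direction under any alternative run, but each lost its call under at least 1 and at most 9 of them. A limit of 0.20 chose the same tumours. The covariates of other chromosomes and the fits without tumour 2 or tumours 2, 12 and 32 were chosen after seeing the data. No paired analysis was possible because the labels put all tumours in one group with no shared numbers between sides. In the simulated data the fit with 7 raised tumours recovered differences of 0.5 in only part of the genes. Smaller differences outside chromosome 15 may thus be missed.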

Other observations

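Several lists of B cell genes had medians away from 0 but held 0 called genes, beside 0.104% called of all genes outside chromosome 15. All 10 measured MHC class II genes, which serve antigen presentation, were higher in the raised tumours, with a median difference of 0.64, beside a median of 0.0043 over all 18027 genes. Cd74, the invariant chain, differed by 0.68 (limma adjusted p = 0.76) and H2-Ea by 0.11 (adjusted p = 0.86). The score of the list ran from -0.90 to 1.90 in the raised tumours, against -2.12 to 2.34 in the other tumours, so the sides overlapped. Among markers of antigen-presenting cells, 9 of 11 dendritic cell genes (median 0.47) and 15 of 18 macrophage genes (median 0.23) were higher. The dendritic cell genes include Ly6d of chromosome 15, which the rule used. Their score had a median of -0.23 in the raised tumours, with 2.37 in tumour 32, against -0.36 in the other tumours. The part of these cells in the MHC class II values was not tested. None of 7 germinal centre genes had a higher mean, with a median difference of -0.58. Bcl6, the master repressor of that stage, differed by -0.69 (limma adjusted p = 0.84) and Rgs13 by -1.03 (adjusted p = 0.86). The score medians were closer, at -0.67 in the raised and -0.47 in the other tumours, among which tumours 18 (4.83) and 27 (4.29) were highest. For Rgs13, 4 of 7 raised tumours lay above the median of the other tumours, and for Bcl6 3. Precursor B cell genes were split, 8 of 15 higher, from -1.08 for Lef1 to 0.73 for Il7r, which lies on chromosome 15.

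Salivary gland genes had the lowest median of the 30 lists: 1 of 12 was higher, with a median difference of -2.17 and 0 called. Their score ran from -1.89 to -0.63 in the raised tumours, against -1.91 to 7.28 (tumour 25) in the other tumours, with nearly equal medians (-1.69 and -1.70). Among lesion genes of Myc lymphomas 0 of 15 passed, beside 0.104% of all genes outside chromosome 15, so nothing is read from that count. Cdkn2a, of the Arf and p16Ink4a tumour suppressors, differed by 0.49 (limma adjusted p = 0.95), the Polycomb gene Bmi1 by 0.61 (adjusted p = 0.49) and Ccnd2 by -0.43 (adjusted p = 0.9).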
